A study of Mus with 4 samples.

Results

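The genes described here are 8 transcription factor genes that set hepatocyte identity, Hnf4a, Cebpa, Cebpb, Foxa1, Foxa2, Foxa3, Onecut1 and Prox1, chosen by name from the 21887 protein-coding genes of the mouse annotation. They were examined in a TBX3 ChIP-Seq experiment on mouse primary hepatocytes. All cells carried the transposon construct pT2-SVNeo-EF1-eGFP-P2A-Tbx3-HA, which makes HA-tagged TBX3 from the EF1α promoter together with eGFP, so the TBX3 measured here was overexpressed. The cells were perfused from liver, expanded in culture with growth factors and the GSK3 inhibitor CHIR99021 and selected with G418 according to the study's methods. Wild-type mice were C57BL/6J, though the sources used here do not tie a strain, age or sex to these cells. The 2 TBX3 ChIP libraries were made with an anti-HA antibody and the 2 Input libraries from the same kind of sheared chromatin without immunoprecipitation. A library made with a control antibody was not analysed here. The authors deposited 1 genome-wide track with no value per library, so no value below has a replicate error, and no group could be tested against another. The track holds no transcripts, so the label of the cells as hepatocytes could not be checked against marker genes.

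Hepatocyte identity is held by a small network of DNA-binding proteins that bind one another's promoters and enhancers and those of liver-specific genes. HNF4A is a nuclear receptor, C/EBPα and C/EBPβ are basic leucine zipper proteins, FOXA1, FOXA2 and FOXA3 are forkhead proteins known to open compact chromatin, ONECUT1 is a cut-homeodomain protein and PROX1 a homeodomain protein. TBX3 is a T-box repressor that acts in the embryonic liver to favour the hepatocyte over the bile duct fate of hepatoblasts. The question put to the track was whether ChIP reads were enriched at the genes of this network.

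Each value of the track, called the score, is the −log10 of a Poisson p-value for how many ChIP reads cover a base, against the level expected from Input. A score of 3 stands for a probability of 0.001 at that base and a score of 5 for 1e-05, before any adjustment. The score moves in steps of whole reads. Over the genome-wide expected level of 2.43 reads, 6 ChIP reads score 1.90, 8 reads 3.02, 9 reads 3.65, 11 reads 5.01 and 12 reads 5.75, and many genes therefore share a value. After Benjamini-Hochberg adjustment over all bases of the track, an adjusted p of 0.05 lies at a score of 5.46. The track was examined within 1 kb of either end of each gene, inside the gene and up to 10 kb outside it. The gene table gives no strand, so ends are called lower and higher by coordinate.

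No enriched region was called at any of the 8 genes. A region had to score 5 or more over 200 bp, allowing breaks of 30 bp, and 0.672% of protein-coding genes had one between 10 kb before and 10 kb after the gene. E2f7 and E2f8, the genes at which the study describes binding, had 1 each. That binding was found in this same ChIP-Seq experiment and checked by ChIP-qPCR, so high values at E2f7 and E2f8 here were given in advance. The called summit nearest to any of the 8 genes was 807545 bp from Foxa3, and the others lay between 2771215 bp (Hnf4a) and 20802975 bp (Foxa1) away. Of the 8 genes, 6 lay farther from a called summit than the median of the 20665 protein-coding genes for which that distance could be taken.

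Below the level of called regions, the highest scores of the 8 genes were spread around the middle of all genes. Their mean scores inside the gene were mostly lower, with 7 of 8 below the median of protein-coding genes, 0.339. Of these 7, Hnf4a (0.335) and Foxa1 (0.334) lay just under that median. Within 1 kb of a gene end, 4 of 8 genes (50%) had a score of at least 3, namely Hnf4a, Cebpb, Foxa1 and Foxa2, while 29.1% of protein-coding genes did. Only Foxa2 reached 5 there, a score that 3.6% of protein-coding genes reached. Inside the gene, 4 of 8 (Hnf4a, Foxa1, Foxa2 and Prox1) reached 3, against 61.9% of protein-coding genes, and Hnf4a reached 5, against 13.9%. A longer gene has more bases from which its highest score is drawn, and the median length was 8829.5 bp for the 8 genes and 17169 bp for all protein-coding genes. Outside, all but Onecut1 reached 3, against 74.8% of protein-coding genes, and Foxa2 and Foxa3 reached 5, against 10.3%. The first 1 kb outside is shared with the end windows, and the summits of Hnf4a, Foxa1 and Foxa2 are the same bases in both. At a score of 2 the counts were 4, 5 and 8 of 8 at the ends, inside and outside, against 55.2%, 78.8% and 94.5% of protein-coding genes, and at a score of 4 they were 1, 1 and 2, against 8.16%, 29.6% and 27%. As a crude stand-in for counting each read pair once, the inferred reads and the expected level at each base were divided by 2, with reads rounded down. Whether mates entered the track as separate reads was not tested. Counted this way, 0 of the 8 genes reached 3 at their ends, against 2.29% of protein-coding genes. The median of the highest scores was 2.46 at the ends of the 8 genes and 2.44 over all protein-coding genes, 2.73 against 3.02 inside genes and 3.29 against 3.55 outside them.

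**Figure D1:**
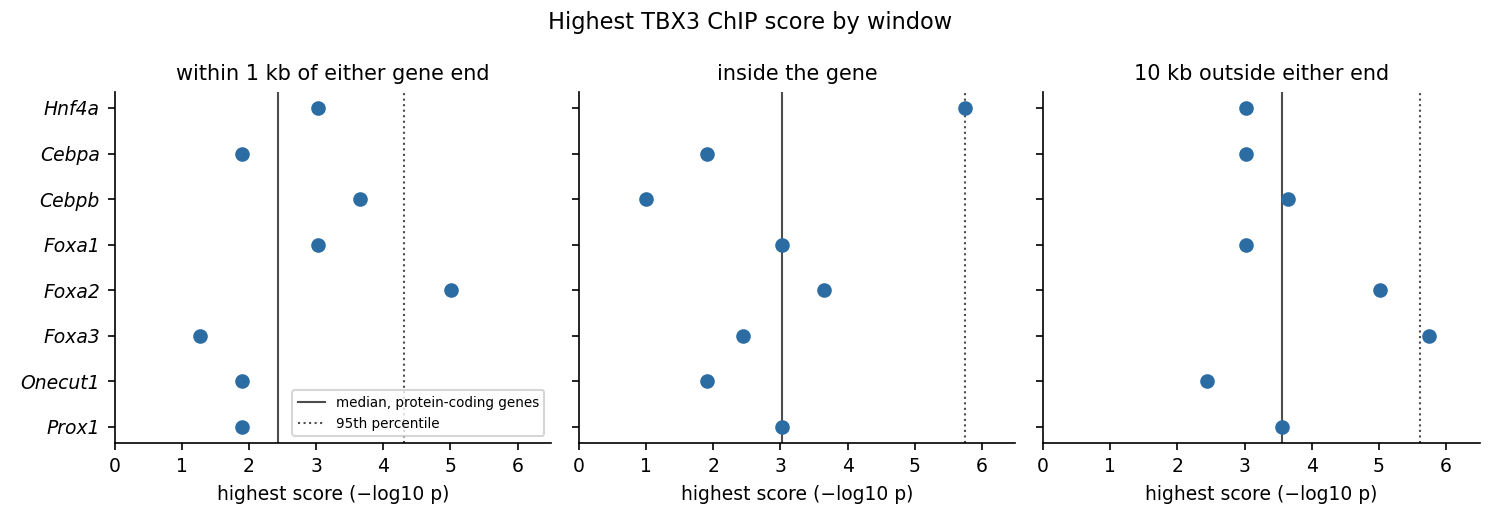
Highest score (−log10 p, horizontal axis) of each of the 8 genes in the 3 windows, with 1 point per gene from the single track; the solid line is the median and the dotted line the 95th percentile of the 21887 protein-coding genes. Foxa2 lies past the 95th percentile at the gene ends and Foxa3 outside the gene, and Hnf4a lies on it inside the gene.

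Hnf4a (gene 15378, chromosome 2, 163506811 to 163572907 of GRCm38) is the longest of the 8 genes at 66097 bp and encodes the nuclear receptor that keeps hepatocytes differentiated. Its highest score, 5.75, stood inside the gene at 163555143, 17764 bp from the higher end, where no other annotated gene lies. There 12 ChIP reads were inferred against 2.43 expected, or 4.93 times the expected level, and the adjusted p was 0.0307. With reads and expected level divided by 2, an alternative added for the adjusted p after seeing the data, these were 3.56 and 0.804. Dividing lowers the score of any enriched base, so this fall is not particular to Hnf4a. The score was at least 5 at 56 bases, within a stretch of 150 bp that scored 3 or more, short of the 200 bp of a called region. A score as high occurred inside 1403 protein-coding genes, 6.41% of them, with a 95% Wilson interval of 6.09 to 6.74%. This share and those that follow describe the track only, since genes are no replicates. The highest score of a long gene is drawn from more bases, and the mean score inside Hnf4a, 0.335, was reached by 51.8% of genes. At its ends the highest score was 3.02, from 8 reads at 163506596, 215 bp outside the lower end and within the antisense lncRNA gene Hnf4aos. The mean score of the end windows, 0.574, was higher in rank than their highest score and was reached by 7.05% of genes. The nearest protein-coding neighbour, R3hdml, lies 4190 bp away and had an end score of 3.55.

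The genes of the C/EBP pair were low inside and differed outside. Cebpa (gene 12606, chromosome 7, 35119293 to 35121928) encodes C/EBPα, which drives metabolic genes and restrains hepatocyte division. Its ends reached 1.90, from 6 reads, and 74.5% of protein-coding genes scored as high. Inside the gene the highest score was the same 1.90, and outside it 3.02, from 8 reads over 16 bases 1935 bp beyond the lower end. Cebpb (gene 12608, chromosome 2, 167688915 to 167690432) encodes C/EBPβ, known for its part in the acute phase response and in regeneration. Its highest end score, 3.65, came from 9 reads at 167691144, 712 bp beyond the higher end and within the lncRNA gene A530013C23Rik, and 14.7% of genes scored as high. Inside the gene, 1518 bp long, no base exceeded 1.00. Around Cebpb 5 separate stretches scored 3 or more, all outside the gene and at most 102 bp long, with summits of 3.02 to 3.65. The mean score in the 10 kb outside Cebpb was 0.479, a level that 5.35% of genes reached, whereas 64.7% of genes reached the 0.318 of Cebpa. The end scores of the pair differ by 3 ChIP reads.

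The highest scores of the 3 forkhead genes at their ends ranged from 1.27 to 5.01, the span of all 8 genes. Foxa2 (gene 15376, chromosome 2, 148042877 to 148046969), which acts with Foxa1 in the onset of liver development, had the highest end score of the 8 genes, 5.01, from 11 reads against 2.43 expected at 148047681, 712 bp beyond the higher end. This summit lies outside all annotated genes, its adjusted p was 0.0687, and 3.6% of protein-coding genes scored as high, with a 95% Wilson interval of 3.37 to 3.86%. With reads divided by 2 it scored 2.79, a level that 6.84% of genes reached at their ends. A summit of 4.31, from 10 reads, lay 1027 bp beyond the lower end at 148041850. The gene itself reached 3.65 at 148046793, 176 bp inside the higher end. Foxa1 (gene 15375, chromosome 12, 57540628 to 57548029) reached 3.02 in each window, always from 8 reads over at most 20 bases. The mean score of its end windows, 0.269, was reached by 70.6% of genes, so Foxa1 ranked on the low side by that measure. Its overlapping neighbour Ttc6 had an end score of 0.999. Foxa3 (gene 15377, chromosome 7, 19013283 to 19023539), the family member linked to glucose supply in fasting, had the lowest end score of the 8, 1.27, which 92.6% of genes reached, from 6 reads against 3.34 expected. Inside Foxa3 the highest score was 2.44. Outside Foxa3 stood a summit of 5.75 at 19025697, 2158 bp beyond the higher end, from 12 reads against 2.43 expected, with an adjusted p of 0.0307 and a score of at least 5 at 40 bases. With reads and expected level divided by 2, this summit scored 3.56 with an adjusted p of 0.804, as did the one inside Hnf4a. A score as high was found outside 4.64% of protein-coding genes, whereas 80.0% of genes reached the mean score of 0.283 in the 10 kb outside Foxa3. The 1 kb around this summit held 0.738 times the expected reads in all. That ratio was 1.37 around the summit inside Hnf4a and 1.53 around the Foxa2 summit of 5.01. At gene ends the median ratio of protein-coding genes was 0.592. The summit beside Foxa3 is inside the neighbouring gene Sympk, which starts 838 bp from Foxa3, and the highest score anywhere inside Sympk was 8.13.

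The homeodomain genes Onecut1 and Prox1 reached no score of 4 in any window. Onecut1 (gene 15379, chromosome 9, 74861921 to 74889648) encodes HNF6, which acts in bile duct and pancreas development. It was the only one of the 8 with no base at a score of 3 in its whole locus of 47.7 kb, flanks included. Its highest scores were 1.90 at the ends, 1.90 inside and 2.44 outside, and 74.5%, 86.5% and 93.1% of protein-coding genes scored as high. Its mean score outside the gene, 0.199, was reached by 97.0% of genes. Chromosome 9 had 0.739 times the median autosomal depth of ChIP reads in this track. Prox1 (gene 19130, chromosome 1, 190118035 to 190170827) encodes a factor needed for hepatoblast expansion and lymphatic vessel identity. It had 8 stretches that scored 3 or more, the most of any of these genes as a count, but per 10 kb of its 72.8 kb locus Prox1 had 1.10, against 2.91 at Foxa2 and 2.32 at Cebpb. Each stretch at Prox1 was at most 23 bp long and the highest summit, 3.55 at 190176872 within the antisense gene Prox1os, came from 9 reads against 2.50 expected. Its end score was 1.90, as at Cebpa and Onecut1, but the mean scores of the end windows differed. That of Prox1, 0.397, was reached by 31.5% of genes, that of Cebpa, 0.311, by 56.8% and that of Onecut1, 0.213, by 86.5%.

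**Figure D2:**
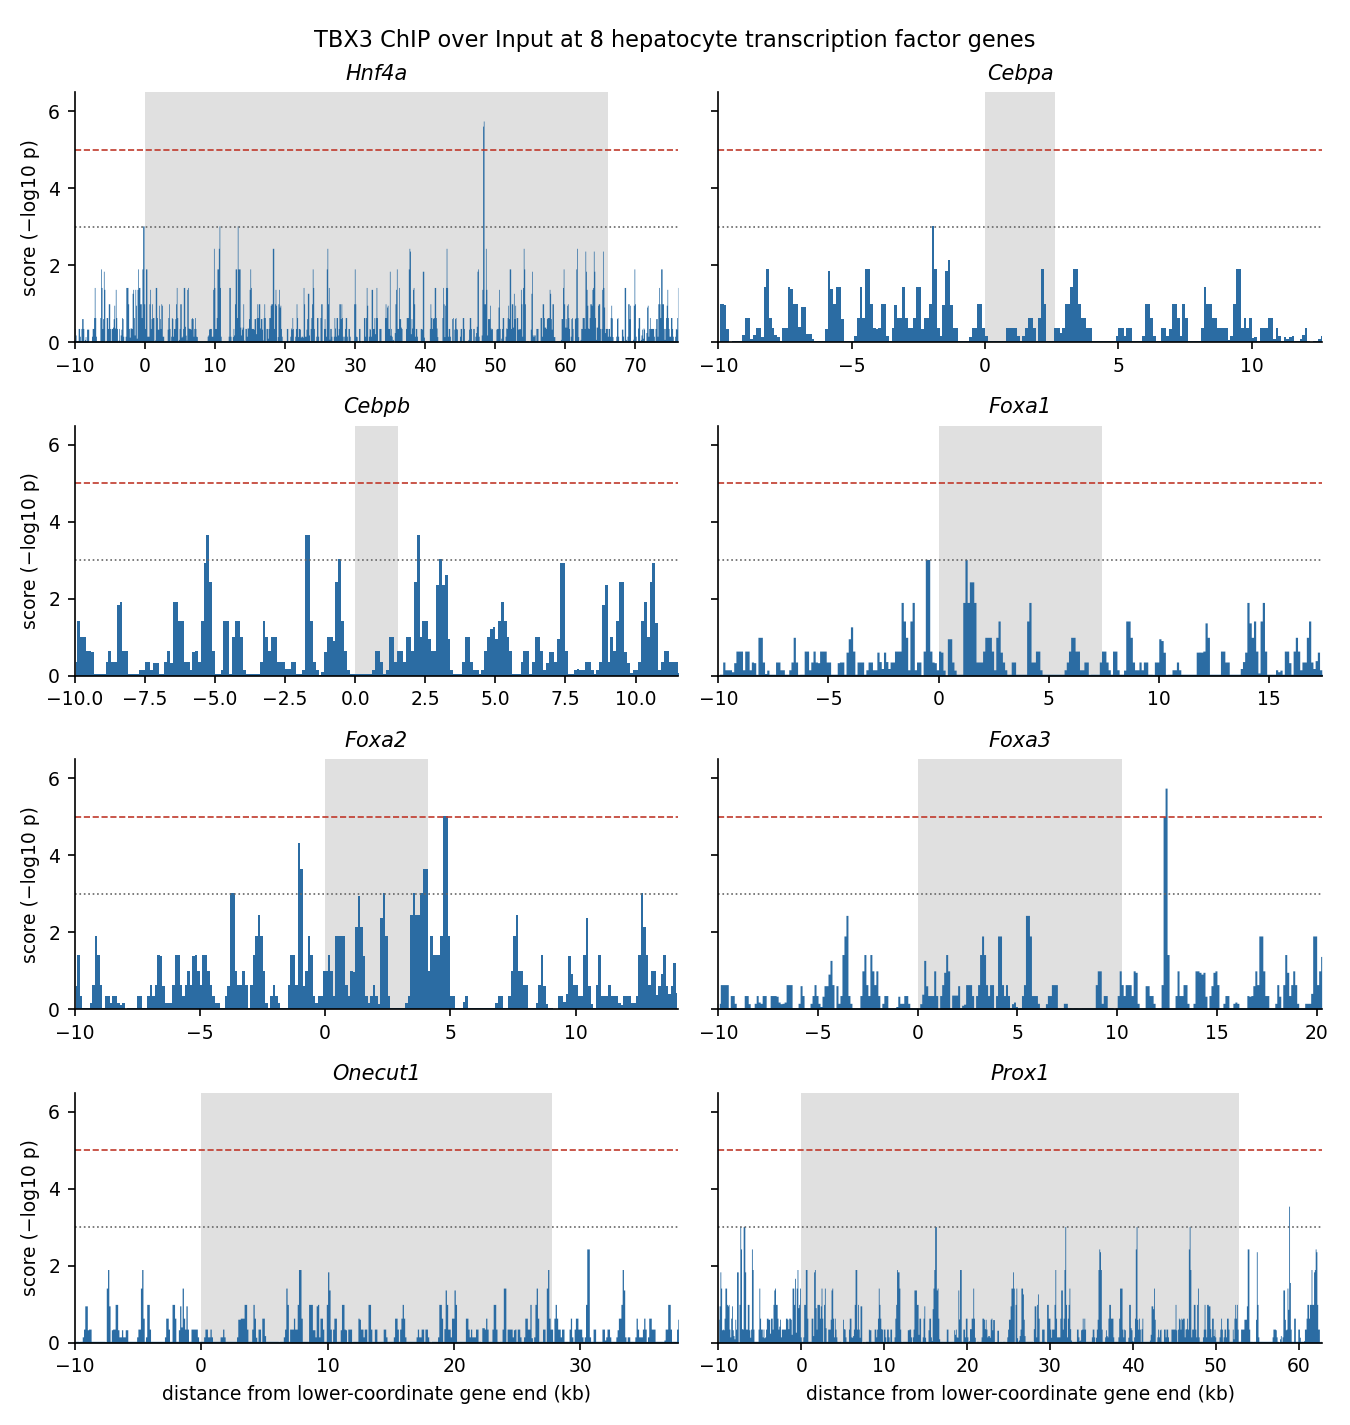
Highest score per 100 bp (−log10 p, vertical axis) along each of the 8 genes and 10 kb on either side, plotted against the distance from the lower-coordinate gene end in kb; grey marks the gene, the dotted line a score of 3 and the dashed line a score of 5. Short peaks touch or pass the dashed line in Hnf4a, beside Foxa2 and beside Foxa3, and the locus of Onecut1 stays under the dotted line.

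The order of the end scores, Foxa2 (5.01), Cebpb (3.65), Hnf4a and Foxa1 (3.02), then Cebpa, Onecut1 and Prox1 (1.90) and Foxa3 (1.27), rests on differences of a few reads. The summits behind it hold 11, 9, 8 and 6 ChIP reads, and each neighbouring pair in this order is at most 2 reads apart. Over all 8 loci, which add up to 333 kb, 28 stretches scored 3 or more, 12 inside the genes and 16 outside. That is 0.842 stretches per 10 kb, while the main chromosomes held 0.858. The stretches had a median length of 20.5 bp, the longest had 150 bp, and 3 of the 28 reached a score of 5. For these 3, at Foxa2, inside Hnf4a and beside Foxa3, the changes of the inferred pileup were examined. Around them 100%, 93.8% and 100% of the changes were of 1 read and no change was larger than 2 reads. The inference favours small changes and duplicate handling is not given, so the presence of stacks of identical reads was not tested. The expected level from Input within 150 bp of these 3 stretches went up to 2.50 reads at Foxa2, 4.17 at Hnf4a and 2.43 at Foxa3.

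The number of reads over a whole window uses more of the data than its highest base. The expected level cannot fall under 2.43 reads, and the ratio of ChIP reads to expected reads at gene ends was therefore under 1 for most genes, with a median of 0.592 over protein-coding genes and a 95th percentile of 0.950. Foxa2 had the highest ratio of the 8 genes. Its end windows held 95.4 ChIP reads against 65.8 expected, a ratio of 1.45 (95% exact Poisson interval 1.17 to 1.77), and only 47 protein-coding genes, or 0.215%, had a ratio as high, Foxa2 included. Its ratio was 1.41 within 0.5 kb of the ends, reached by 192 genes (0.877%), and 1.04 within 2 kb, reached by 234 genes (1.07%), so the 1 kb window gave the smallest share. The ratio was 1.43 (1.19 to 1.72) at E2f7, reached by 54 genes, and 1.08 (0.857 to 1.35) at E2f8, reached by 430 genes. These intervals cover counting error only, and they would be wider if the mates of read pairs entered the track as separate reads, with 1.08 to 1.94 for Foxa2. Both ends contributed, with 58.3 reads against 32.6 expected at the higher end and 37.2 against 33.2 at the lower end. The mean score of the end windows, 1.02, was reached by 112 genes (0.512%), and the mean score inside Foxa2, 0.810, by 164 genes (0.749%), although 43.9% of genes reached the highest score inside it, 3.65. Foxa2 was singled out for this description after its values had been seen.

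The reads at Foxa2 lay in several adjoining bins, and no bin reached the height of those at E2f7 and E2f8. In bins of 500 bp, the fullest bin of Foxa2, from 3.5 to 4 kb above its lower end, held 20.7 ChIP reads against 8.14 expected. Its ratio of 2.54 was reached by 0.0150% of all bins on the main chromosomes. That share is for single bins, whereas this bin was picked as the highest of 670 over the 8 loci. The 2 bins above that bin had ratios of 1.78 and 2.14. The fullest bins of E2f7 and E2f8 had ratios of 5.01 and 5.16, and the bin just below that of E2f8 had 2.79. In the Foxa2 locus 15 of 49 bins (30.6%) held more ChIP reads than expected. On the same chromosome, 13 of 44 bins (29.5%) at Cebpb and 21 of 173 (12.1%) at Hnf4a did. So did 37 of 124 (29.8%) at E2f7, on chromosome 10 with 1.41 times the median autosomal depth, and 10 of 72 (13.9%) at E2f8. Over the main chromosomes 15.0% of bins did, and over all 8 loci 13.6%. Within 1 kb of its ends Foxa2 had 464 bases with a score of at least 2, beside 523 at E2f7 and 482 at E2f8, and 0.868% of protein-coding genes had as many.

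**Figure D3:**
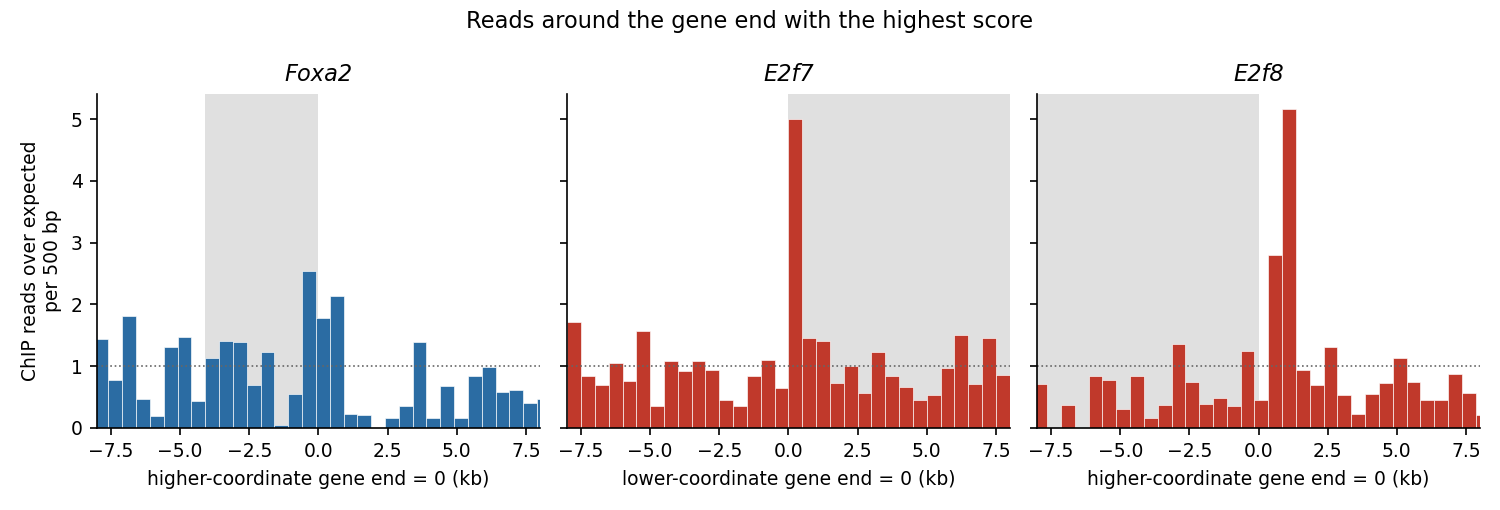
ChIP reads over expected reads in bins of 500 bp (vertical axis) against the distance in kb from the gene end with the highest score, for Foxa2 (blue), E2f7 and E2f8 (red); grey marks the gene and the dotted line a ratio of 1. Foxa2 has several bins between 1 and 2.54. E2f7 and E2f8 each have a single bin near 5, and at E2f8 the bin beside it has a ratio of 2.79.

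Among the other genes, the read ratio at the ends was 0.921 (95% exact Poisson interval 0.709 to 1.17) at Hnf4a and 0.821 (0.601 to 1.09) at Cebpb, and 6.36% and 13.2% of genes had a ratio as high. For Hnf4a this was the smallest share of the 3 windows, since its ratio was 0.885 within 0.5 kb, reached by 12.4% of genes, and 0.704 within 2 kb, reached by 24.5%. The ratio of Cebpb depended on the window, with 0.522 within 0.5 kb, under the median of 0.579 and reached by 59.9% of genes, and 0.874 within 2 kb, reached by 5.22%. It was 0.709 (0.527 to 0.921) at Prox1 and 0.538 (0.381 to 0.740) at Cebpa. Foxa3, Foxa1 and Onecut1 followed with 0.458 (0.321 to 0.647), 0.449 (0.308 to 0.629) and 0.399 (0.261 to 0.585). Foxa1 crossed to 0.669 within 2 kb, above the median of 0.599 and reached by 31.7% of genes. The interval of Foxa2 overlapped that of Hnf4a only at its edge and lay above those of the other 6 genes, while all other neighbours in this order had overlapping intervals. With read counts divided by 2, as for pairs of mates, this separation was partly lost. The interval of Foxa2 was then 1.08 to 1.94 and overlapped those of Hnf4a (0.642 to 1.31) and Cebpb (0.535 to 1.24). The 3 highest ratios belong to the 3 genes on chromosome 2, whose median ratio at gene ends was 0.651, and the lowest to Onecut1 on chromosome 9, whose median was 0.462. Divided by the median of their chromosome, the ratios were 2.23 at Foxa2, 1.41 at Hnf4a, 1.26 at Cebpb and 0.864 at Onecut1. By this measure Foxa3 (0.830) and Foxa1 (0.841) lay below Onecut1. A value as high as that of Foxa2 occurred at 97 protein-coding genes (0.443%). Inside the genes the ratio was above the median of protein-coding genes only at Foxa2, with 83.9 reads against 72.0 expected, and under 0.6 at the other 7 genes.

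**Figure D4:**
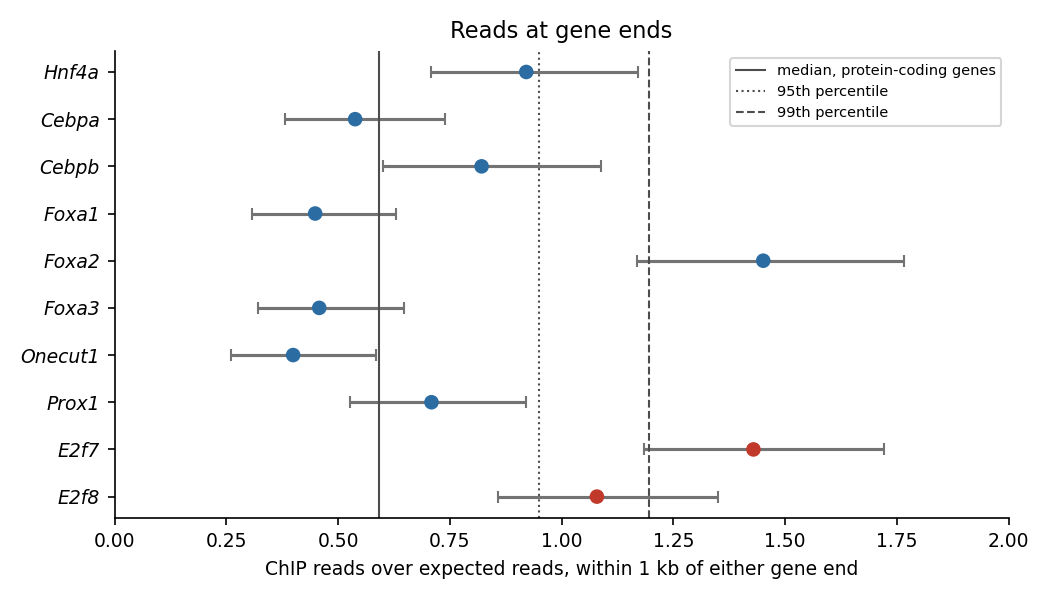
Ratio of ChIP reads to expected reads within 1 kb of either gene end (horizontal axis) for the 8 genes (blue) and for E2f7 and E2f8 (red), with 95% exact Poisson intervals that cover counting error only; vertical lines mark the levels reached by 50%, 5% and 1% of protein-coding genes, the last at 1.19. Foxa2 lies past the last line beside E2f7, and Cebpa, Foxa1, Foxa3 and Onecut1 lie under the median in these 1 kb windows.

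Other genes of the liver programme were read the same way. Of 18 other liver transcription factor genes, 5 (27.8%) had an end score of at least 3, close to the 29.1% of all protein-coding genes, and the highest was 5.01 at Atf5, a stress-response factor, followed by 3.02 at Cebpd, a further C/EBP gene, which shared this score with Nr1h3, Ppara and Srebf1. Klf15, a factor of fasting metabolism, was the lowest along with Hhex, at 1.42. Inside genes 14 of 18 (77.8%) reached 3, against 61.9% of all protein-coding genes, in a list whose median gene length of 27932 bp exceeds the 17169 bp of all genes. Inside the other lists 8 of 15 cholangiocyte genes (53.3%) and 7 of 14 hepatocyte target genes (50%) did, with median lengths of 15149 and 10153 bp. Of 15 cholangiocyte genes, 6 (40%) had an end score of at least 3. Krt19, a keratin of bile duct cells, was highest with 5.75, followed by Prom1 with 4.31, and the lowest score was 1.42 at Epcam, Klf5 and Sox9. Of 14 hepatocyte target genes found, 2 (14.3%) reached 3 at their ends, Afp, the fetal counterpart of albumin, with 3.55 and Apoa2, an apolipoprotein, with 3.02. The median read ratio was 0.624 in the 8 genes, 0.564, 0.530 and 0.614 in the 3 lists and 0.592 over all protein-coding genes. No gene of the 3 lists had a called region.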

How the data were processed

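Mapping by the authors used Bowtie 2, sorting Samtools and the track MACS2, and the submitters' processing notes name build mm10. Versions, duplicate handling and which libraries entered the track are not given in the sources used here. The deposited values are −log10 p-values of ChIP over Input at each base, over 2727620324 bases, with 0 further columns holding values of samples. The 8 genes, the lists and the named genes were chosen with earlier results of these data known. Named genes were the 8, E2f7 and E2f8, the 2 highest and the lowest of each list by end score, and the nearest protein-coding neighbour within 10 kb. One gene that this rule names is not reported here.

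Gene positions came from RefSeq GRCm38.p6, the assembly of mm10, on 21 main chromosomes. The symbol Tf of the hepatocyte list was not matched. ChIP reads and the expected level were inferred as the whole number and level that give each score under a Poisson distribution. Such values were found for 99.998% of bases, with a fitted fragment length of 150 bp and an Input scale of 0.835. Where several fitted, small changes along the chromosome and expected levels near the genome-wide one were favoured. Inferred ChIP reads numbered 30089147, and the depth of each library is unknown. On simulated reads over 6000000 bases the pileup was right at 99.9% of bases, and all 10 strong sites and 0 of 10 sites with 1 added read were called. No sites of intermediate strength were simulated. No sequence was used, so T-box motifs were not searched. Analyses ran in Python 3.11.15 with scipy 1.17.1 and numba 0.67.0, tables in numpy 2.4.6 and pandas 2.3.3, and figures in matplotlib 3.10.9.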

Additional observations from a re-analysis of the deposited data

How the results depend on the processing

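No paired analysis was possible because a single track holds no separate values for the libraries, and for the same reason no replicate could be left out. Windows on the 5′ end alone and motif searches were not run, since no strand or sequence was used. At a cutoff of 4 in place of 3, the number of the 8 genes past it fell from 4 to 1 at the gene ends, from 4 to 1 inside the gene and from 7 to 2 outside, as a stricter cutoff must, and 8.16%, 29.6% and 27% of protein-coding genes passed it. With reads and expected level divided by 2 at each base, 0 of the 8 genes reached 3 at their ends, against 2.29% of protein-coding genes. Fewer reads lower the scores of enriched bases. Foxa2 then scored 2.79 at its ends, which 6.84% of genes reached, E2f7 11.83 and E2f8 8.14. The summits inside Hnf4a and beside Foxa3 scored 3.56, and their adjusted p went from 0.0307 to 0.804. For the highest summits of E2f7 and E2f8 the adjusted p was then 2.3e-06 and 0.00302. At another E2f8 summit, with a score of 8.13 before the division, it went from 0.000559 to 0.804. In windows of 0.5 and 2 kb at the ends 3 and 5 of the 8 genes reached 3 (17.7% and 45.4% of protein-coding genes), inside without the 1 kb next to each end 4 did (56.7%), and within 5 and 20 kb outside 6 and 7 did (53.8% and 90.3%). No region was called at the 8 genes under any of the 4 other settings run, under which 0.927% to 3.02% of protein-coding genes had one. The number of the 8 genes above the median read ratio was 4 within 1 kb, 3 within 0.5 kb, where Cebpb fell below it, and 5 within 2 kb, where Foxa1 rose above it. Ranked by mean score, 23 of 24 ranks left their Wilson interval, 11 of the 24 shares being higher and 13 lower, and with all 49943 annotated genes as background 18 did. This interval reflects only the number of genes and served as a yardstick, not as a test.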
